A study of Canis lupus familiaris with 22 samples.

Results

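*SLPI* and the genes of 9 proteins stored in neutrophil granules were followed in the blood of dogs with canine atopic dermatitis (cAD) and of healthy dogs. The members were the probes, other than control spots, whose gene name in the scanner files was *SLPI*, *MPO*, *ELANE*, *CTSG*, *BPI*, *LTF*, *LCN2*, *CAMP*, *PGLYRP1* or *CD177*. The rule found 14 probes of 9 of these 10 genes among 43603 probes, since no probe carried the name *CD177*. The probe of the locus LOC612424, which the reference table of RefSeq genes names *CD177*, was read beside them and is kept out of the counts of members. The study compared 8 healthy dogs (ctrl), 7 cAD patients before allergen-specific immunotherapy (ASIT; group 0) and the same 7 patients after 6 months of ASIT. All dogs were privately owned or blood donors of several breeds, and each patient received extracts of the allergens to which its own skin had reacted, injected under the skin in rising doses. Each of the 22 samples was hybridized to its own Agilent canine array in Cy5, against a common reference in Cy3 made of RNA from 13 healthy dogs outside the study. The values are log2 ratios of the dog over this reference, so a difference of 1 between groups is a doubling. The labels name whole blood as the material, while the paper speaks of peripheral blood nuclear cells (PBNCs).

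Neutrophils are filled in the bone marrow with granules, whose content depends on the stage of maturation at which it is made. Azurophil granules come first and hold myeloperoxidase (*MPO*), the serine proteases elastase (*ELANE*) and cathepsin G (*CTSG*), and the endotoxin-binding protein BPI (*BPI*). Specific granules follow and hold the iron-binding lactoferrin (*LTF*), lipocalin 2, which captures bacterial iron carriers (*LCN2*), the cathelicidin precursor (*CAMP*), the peptidoglycan-binding PGLYRP1 and the surface glycoprotein CD177. *SLPI* encodes the secretory leukocyte peptidase inhibitor, a small secreted protein of epithelia and of neutrophils that blocks elastase and cathepsin G. Transcripts of myeloperoxidase and of the azurophil proteases are abundant in early precursors and scarce in circulating neutrophils.

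*SLPI* was read by 2 probes that stand for the same RefSeq transcript and are shown since their values differ. Probe 1, with Cy5 well above background on 22 of 22 arrays and the brighter of the pair, was taken as the main probe. The files place probe 1 on canFam3.1 at chr24:32566017-32566046 and probe 2 at chr24:32566946-32567491, and the probe for elastase, the best known target of SLPI, at chr20:57789629-57790131. The listed span of probe 1 is 30 bases, shorter than its 60 letters. Strands are not given here, and no annotation of that build was used to place the probes in exons. The sequences, all in lower case, are those of the scanner files.
SLPI probe 1: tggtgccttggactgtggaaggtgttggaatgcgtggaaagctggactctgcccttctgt
SLPI probe 2: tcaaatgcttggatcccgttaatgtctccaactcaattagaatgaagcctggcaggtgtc
ELANE probe 1: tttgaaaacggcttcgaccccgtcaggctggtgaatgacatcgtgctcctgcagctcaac

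Array signal differed between the groups before any gene was compared. On the median ctrl array, 87.85% of probes had a Cy5 signal well above background, against 62.5% before ASIT and 61.6% after ASIT, and the same share for the common reference in Cy3, the same RNA throughout, was 81.6%, 58% and 56.8%. The ctrl arrays lay on 2 slides of their own, scanned on a day of their own, so slide and scan day cannot be told apart from health. Arrays of dogs 1, 2 and 3 before and after ASIT shared slides. Of the 8 mature neutrophil markers reported, 4 had a probe (*CSF3R*, *CXCR2*, *FPR2* and *AQP9*), and these 4 were well above background on every array.

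*SLPI* probe 1 gave a higher ratio in cAD patients than in ctrl. In ctrl it ranged from -0.09 to 0.54 with a median of 0.23 (mean 0.23 ± 0.24, SD, n = 8). Before ASIT it ranged from 0.54 to 1.02 with a median of 0.76 (mean 0.76 ± 0.17, n = 7). After ASIT it ranged from -0.01 to 1.13 with a median of 0.88 (mean 0.77 ± 0.39, n = 7). The groups before ASIT and ctrl did not overlap, but the margin was thin, since the lowest patient (dog 1, 0.542) lay next to the highest healthy dog (0.538). A lack of overlap with patients on the higher side was seen in 0.0836% of all tested probes. After ASIT, 6 of 7 arrays lay between 0.54 and 1.13, all above the highest ctrl, and dog 5 at -0.01 lay among the lower ctrl arrays.

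In 0 vs. ctrl, the difference of means of *SLPI* probe 1 was 0.53 (SE 0.16, 95% interval 0.20 to 0.86), while it turned to -0.59 when the Cy5 channel was read alone (exact permutation p = 0.00699). The 2-sided exact permutation test of the ratio gave p = 0.000622, and the limma test gave an adjusted p of 0.182 over all 38287 tested probes. In 6 months vs. ctrl, the difference was 0.54 (SE 0.16, 95% interval 0.21 to 0.87, exact permutation p = 0.00932, adjusted p = 0.602 in limma), against -0.11 in Cy5 alone (exact permutation p = 0.559). With normexp background correction and loess in place of the deposited ratios, the differences to ctrl shrank to 0.060 (exact permutation p = 0.413) and 0.073 (exact permutation p = 0.404). In 0 vs. 6 months, probe 1 differed by -0.01 (95% interval -0.35 to 0.33), with an exact permutation p of 0.958. In Cy5 alone it differed by -0.48 (exact permutation p = 0.049, not paired by dog). The exact sign-flip test of the ratio within dogs gave p = 0.938, with 3 of 7 dogs higher before ASIT and 4 higher after. Dog 5 dropped by 0.77 from before to after ASIT, and the other 6 dogs moved by less, between a fall of 0.15 (dog 3) and a rise of 0.40 (dog 7). In bulk blood, a change in the number of cells that make a transcript and a change in the RNA per cell cannot be told apart.

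*SLPI* probe 2 had the same direction of ratio and wider groups. It ranged from -0.79 to 0.17 in ctrl with a median of -0.05. Before ASIT it ranged from -0.16 to 1.49 with a median of 0.65, and dogs 1 and 7 lay within the ctrl range. After ASIT it ranged from -0.24 to 1.60 with a median of 1.13, and dog 5 was again the lowest. The difference was 0.72 in 0 vs. ctrl (95% interval 0.19 to 1.24, exact permutation p = 0.00793) and 1.05 in 6 months vs. ctrl (95% interval 0.53 to 1.58, exact permutation p = 0.00186). The limma adjusted p was 0.237 and 0.512, and with normexp the differences shrank to 0.18 and 0.21. In 0 vs. 6 months it was -0.34 (95% interval -0.88 to 0.20, exact permutation p = 0.298).

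**Figure D1:**
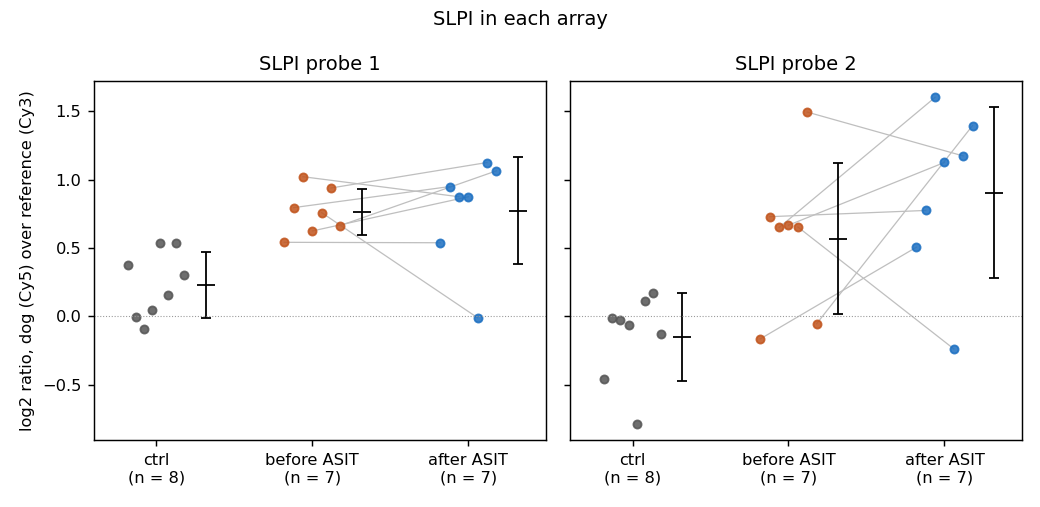
Log2 ratio of the dog (Cy5) over the common reference (Cy3) for the 2 SLPI probes, 1 point per array. Bars give the mean and SD of each group, and grey lines join the arrays of a dog. Before ASIT, probe 1 lies from 0.54 to 1.02 against -0.09 to 0.54 in ctrl, and dog 5 falls to -0.01 after ASIT.

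The channels behind these ratios moved in opposite ways for the 2 probes. After quantile normalization of each channel between arrays, the dog's own Cy5 signal of probe 1 had a mean log2 signal of 8.13 in ctrl, 7.54 before ASIT and 8.02 after ASIT. The Cy3 signal of the same probe, which reads the common reference, was 7.82, 6.93 and 7.29. The ratio of probe 1 was thus higher in patients with a Cy3 signal lower by 0.89 before ASIT and by 0.53 after ASIT than in ctrl. For probe 2, the Cy5 signal was 5.53 in ctrl, 7.25 before and 7.43 after ASIT, and the Cy3 signal was 5.78, 6.83 and 6.58. Since the reference RNA was the same on every array, these Cy3 differences followed the arrays, and their part in the *SLPI* ratios was not tested.

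**Figure D2:**
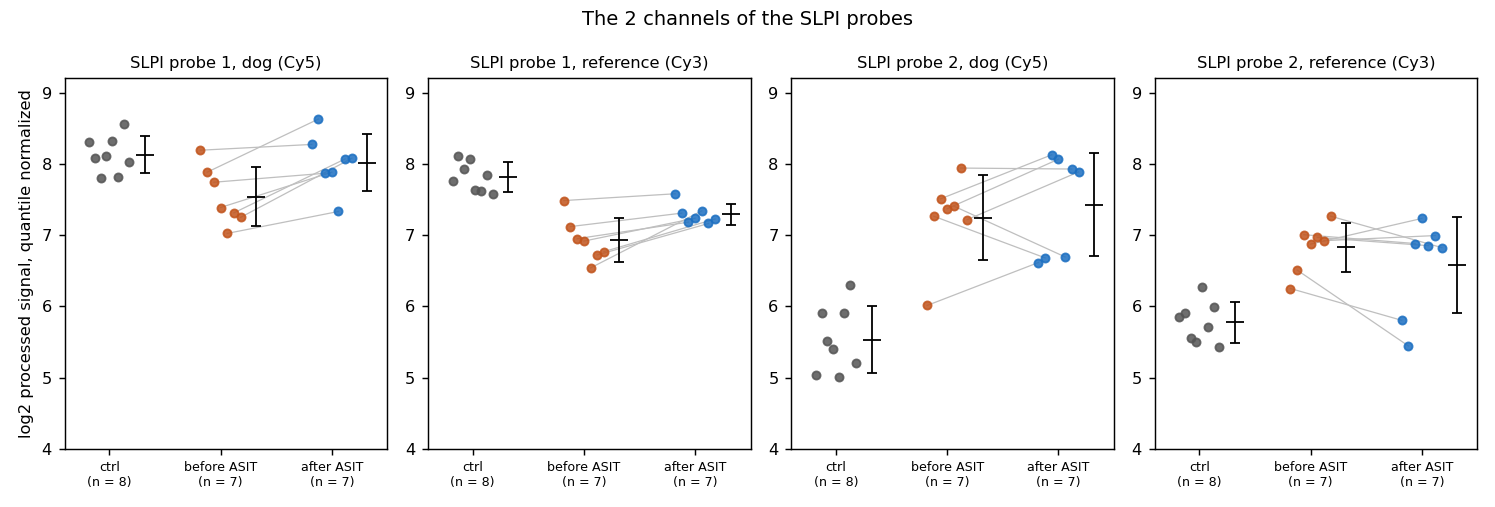
Log2 processed signal of each channel, quantile normalized between arrays, for the 2 SLPI probes, 1 point per array with the mean and SD of each group and grey lines joining the arrays of a dog. The reference channel (Cy3) of probe 1 is lower in patients (means 6.93 and 7.29) than in ctrl (7.82), and that of probe 2 is higher (6.83 and 6.58 against 5.78).

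None of the 14 member probes passed an adjusted p of 0.05 in the limma fit in any of the 3 comparisons, where 0.0418% (0 vs. ctrl), 0% (6 months vs. ctrl) and 0% (0 vs. 6 months) of all tested probes did. At an unadjusted p under 0.05, limma gave 2, 3 and 0 member probes, against 11.7%, 7.2% and 5.96% of all tested probes. All these member probes were higher in patients, as were 3.81% of all tested probes at that level in 0 vs. ctrl and 4.08% in 6 months vs. ctrl. In limma these were both *SLPI* probes in 0 vs. ctrl, and both with *LCN2* in 6 months vs. ctrl. The one-way test that the methods name, followed by Tukey's, also gave 0 calls in each comparison. At an unadjusted p under 0.05 it gave 2, 2 and 0 probes, which were the *SLPI* probes. With this test the paper reports *SLPI* as significantly higher in patients than in healthy dogs, before and after ASIT. Its filters on flags and on variation differ from the filter used here, and it also measured *SLPI* by real-time PCR. Among the main probes, 7 of 9 genes had a higher mean ratio in 0 vs. ctrl and 6 of 9 in 6 months vs. ctrl, where 47.6% and 43.6% of all tested probes lay above 0. In 0 vs. 6 months, 2 of 9 were higher before ASIT, against 48.6% of all tested probes. All comparisons with ctrl share the same 8 ctrl arrays.

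The azurophil genes showed no common direction, and their median difference was -0.03 in 0 vs. ctrl and -0.04 in 6 months vs. ctrl, against -0.02 and -0.04 over all tested probes. *ELANE* had the largest of these differences. Its ratio ranged from -0.70 to 0.30 in ctrl with a median of -0.11, from -0.57 to 0.96 before ASIT with a median of 0.53, and from -0.93 to 1.04 after ASIT with a median of 0.64. All 3 groups overlapped, and dog 4 was the lowest at both times. The difference was 0.45 ± 0.27 (SE) in 0 vs. ctrl (exact permutation p = 0.0797) and 0.54 ± 0.27 in 6 months vs. ctrl (exact permutation p = 0.0766), with limma adjusted p of 0.552 and 0.681. With normexp background correction these differences shrank to 0.11 and 0.08.

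*CTSG*, the other protease that SLPI blocks, ranged from -0.64 to 0.37 in ctrl (median -0.09), from -1.44 to 1.20 before ASIT (median -0.18) and from -0.84 to 0.24 after ASIT (median -0.16). Patients before ASIT thus spread over the whole ctrl range and past both of its ends, and the difference to ctrl was -0.10 (exact permutation p = 0.787). *MPO* was dim, with Cy5 well above background on 8 of 22 arrays (3 ctrl, 3 before and 2 after ASIT) and Cy3 on 2. Its ratios, -1.02 to 0.55 in ctrl, -1.43 to 1.85 before ASIT and -1.45 to 1.13 after ASIT, rest mostly on signal that was not well above background. The means differed by 0.04 in 0 vs. ctrl and by -0.02 in 6 months vs. ctrl.

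*BPI* was read by 3 probes, all well above background on every array. Probe 1 was bright, with a median Cy5 signal of 26309 in ctrl, against 5920 for the main probe of *LTF*. Probe 1 (chr24:26800710-26800769) ranged from -1.14 to 0.16 in ctrl, -1.61 to 0.26 before ASIT and -0.95 to 0.30 after ASIT. Its difference was -0.10 in 0 vs. ctrl and -0.06 in 6 months vs. ctrl (exact permutation p = 0.732 and 0.801). Probes 1 and 2 ran together over the 22 arrays once group means were taken out (r = 0.72), but probe 3 (chr24:26800828-26800887), which is placed next to probe 1, had an r of 0.08 with it. On probe 3 the ctrl dog 5 stood at 2.62, while the other ctrl dogs lay between -2.13 and 0.31. On probes 1 and 2 the same dog was at 0.16 and -0.04. The difference of probe 3 was 0.19 in 0 vs. ctrl (exact permutation p = 0.787) and 0.65 without that dog (exact permutation p = 0.141). In 6 months vs. ctrl it was 0.37 with the dog and 0.82 without it (exact permutation p = 0.591 and 0.0734).

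The specific granule genes had higher mean ratios in patients for each of 4 main probes, with a median difference of 0.60 in 0 vs. ctrl and 0.90 in 6 months vs. ctrl, and no call in limma. With normexp these medians were 0.40 and 0.44. *PGLYRP1* ranged from -0.39 to 1.26 in ctrl (median 0.06), from -0.83 to 3.53 before ASIT (median 0.33) and from 0.02 to 2.31 after ASIT (median 1.05). Before ASIT the patients fell apart, with dogs 2, 3 and 6 at 3.53, 2.19 and 2.01 and the other 4 between -0.83 and 0.33. The difference was 0.89 ± 0.51 (SE) in 0 vs. ctrl (exact permutation p = 0.156) and 0.99 ± 0.51 in 6 months vs. ctrl (exact permutation p = 0.021), with limma adjusted p of 0.518 and 0.681. With normexp they shrank to 0.32 and 0.36, and in 6 months vs. ctrl *LCN2* and *CAMP*, described next, shrank to 0.51 and 0.56.

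*LCN2* ranged from -0.75 to 0.53 in ctrl (median -0.09), from -0.97 to 1.72 before ASIT (median 0.37) and from -0.67 to 2.09 after ASIT (median 0.88). Dogs 3, 5 and 6 before ASIT, at 1.58, 1.67 and 1.72, lay above every healthy dog. The difference was 0.63 ± 0.44 in 0 vs. ctrl (exact permutation p = 0.167) and 0.91 ± 0.44 in 6 months vs. ctrl (exact permutation p = 0.0465, with an adjusted p of 0.681 in limma). *CAMP* ranged from -0.56 to 0.67 in ctrl (median -0.45), from -1.47 to 2.02 before ASIT (median 0.36) and from -0.49 to 2.53 after ASIT (median 0.52). Its difference was 0.58 ± 0.44 in 0 vs. ctrl (exact permutation p = 0.227) and 0.89 ± 0.44 in 6 months vs. ctrl (exact permutation p = 0.035, with an adjusted p of 0.681 in limma). For *PGLYRP1*, *LCN2* and *CAMP* the patients before ASIT covered the ctrl range and reached beyond both of its ends, and after ASIT they reached beyond its upper end.

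*LTF* was bright and, of the 4 specific granule genes found by name, had the mean ratio closest to ctrl. Its main probe ranged from -0.69 to 0.56 in ctrl (median -0.02), from -0.55 to 1.21 before ASIT (median -0.08) and from -0.18 to 0.74 after ASIT (median 0.23), with differences of 0.17 and 0.26 to ctrl. The 3 *LTF* probes ran together, with r of 0.66 to 0.88 over the 22 arrays after group means were taken out. In 0 vs. ctrl probe 2 differed by 0.24 and probe 3 by -0.09 (exact permutation p = 0.374 and 0.713). Probe 2 differed in 6 months vs. ctrl by 0.45 (exact permutation p = 0.00233, adjusted p = 0.681 in limma), and probe 3 by 0.05 (exact permutation p = 0.832). The probe of the *CD177* locus ranged from -0.28 to 0.97 in ctrl, from -0.65 to 2.17 before ASIT and from -0.21 to 1.53 after ASIT, and differed from ctrl by 0.09 and 0.37 (exact permutation p = 0.841 and 0.218).

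**Figure D3:**
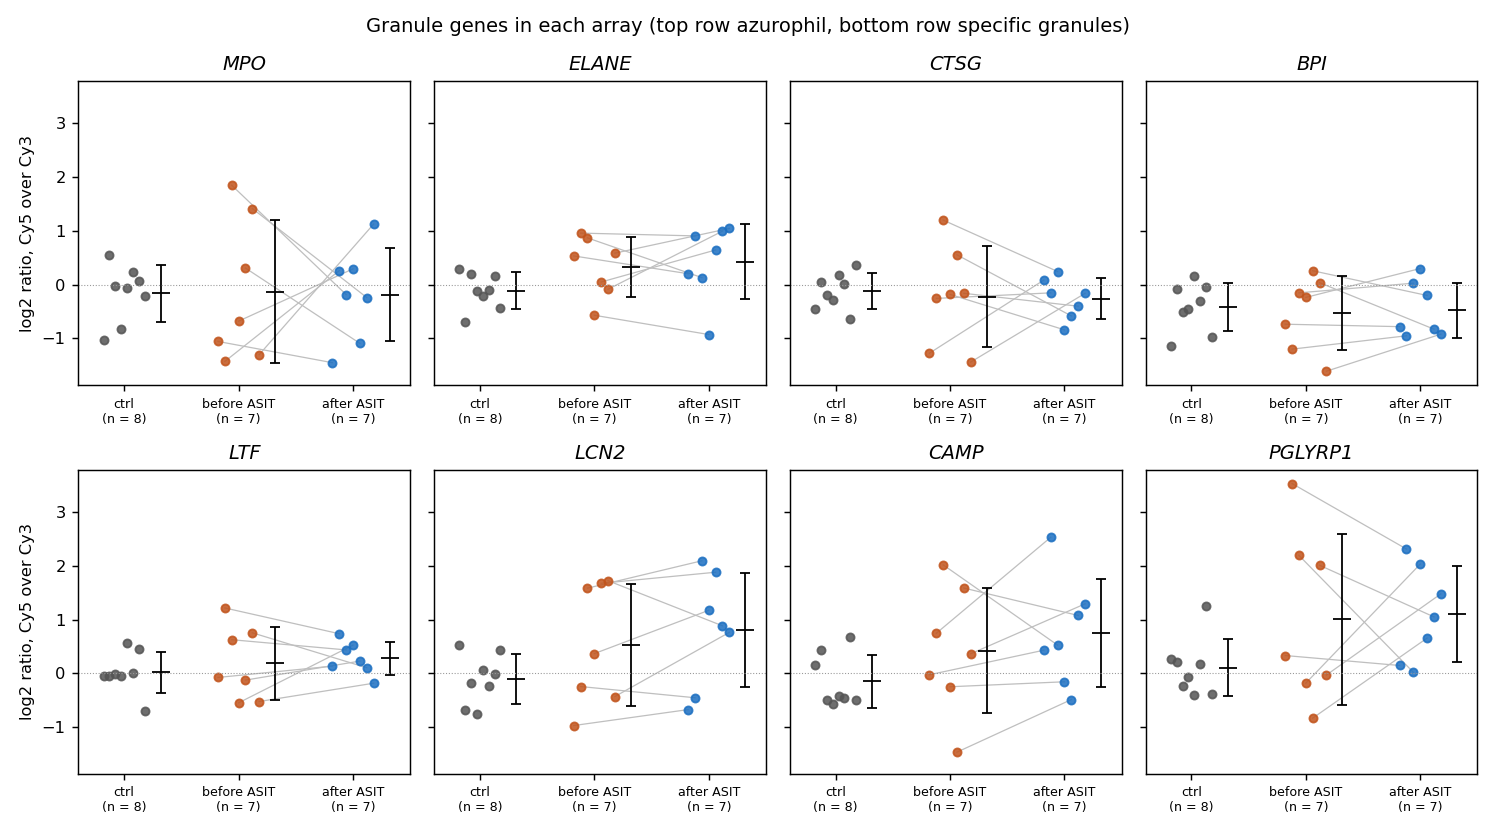
Log2 ratio of the main probe of 8 granule genes, 1 point per array, with the mean and SD of each group and grey lines joining the arrays of a dog. The patients spread more widely than ctrl for most genes, up to 3.53 for PGLYRP1 before ASIT against 1.26 at most in ctrl.

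The spread was wider in patients than in ctrl. The SD before ASIT exceeded that of ctrl for 8 of 8 granule genes and after ASIT for 7 of 8, with a median SD of 0.46 in ctrl, 1.03 before ASIT and 0.79 after ASIT. The same was true of 79.6% and 71.5% of all tested probes. Over the 14 member probes the counts were 11 and 10, close to these shares. Before ASIT, dog 3 stood above every healthy dog for 7 of the 8 genes, dog 6 for 5, dog 2 for 4, dog 5 for 3, and dogs 1, 4 and 7 for at most 1. After ASIT, dog 7 did so for 5 genes, dog 2 for 4, dogs 4 and 6 for 3 each, dog 5 for 2, dog 3 for 1 and dog 1 for 0. The share of all tested probes that did so on the same arrays was not counted, and the dim *MPO* is among the 8 genes. These counts thus describe the arrays and show no trait particular to granule genes. Patient arrays had both the wider spread and the lower share of probes above background, and the part of the latter was not tested. Between the patient groups that share was similar (medians of 62.5% before and 61.6% after ASIT), while the median SD was lower after ASIT.

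In 0 vs. 6 months, each specific granule gene had a lower mean before ASIT, by 0.09 (*LTF*) to 0.32 (*CAMP*), but the direction turned for *LTF* in Cy5 alone (0.03), *LCN2* with normexp (0.08) and *PGLYRP1* with slide as a fixed block (0.82) or a random block (0.08). In dogs 1 to 3, whose pairs share slides, *PGLYRP1* was higher before ASIT by 1.19 and *LTF* by 0.15. Over all pairs, *LCN2* and *CAMP* were higher after ASIT in 5 of 7 dogs each. All 95% intervals held 0, as for *CAMP* (-1.25 to 0.62), *LCN2* (-1.21 to 0.65) and *PGLYRP1* (-1.18 to 0.99). The exact sign-flip test within dogs gave p between 0.297 and 0.953 over the 14 probes, where 7 dogs allow no p below 0.0156. With the dog as a block in limma, no member probe was called either.

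**Figure D4:**
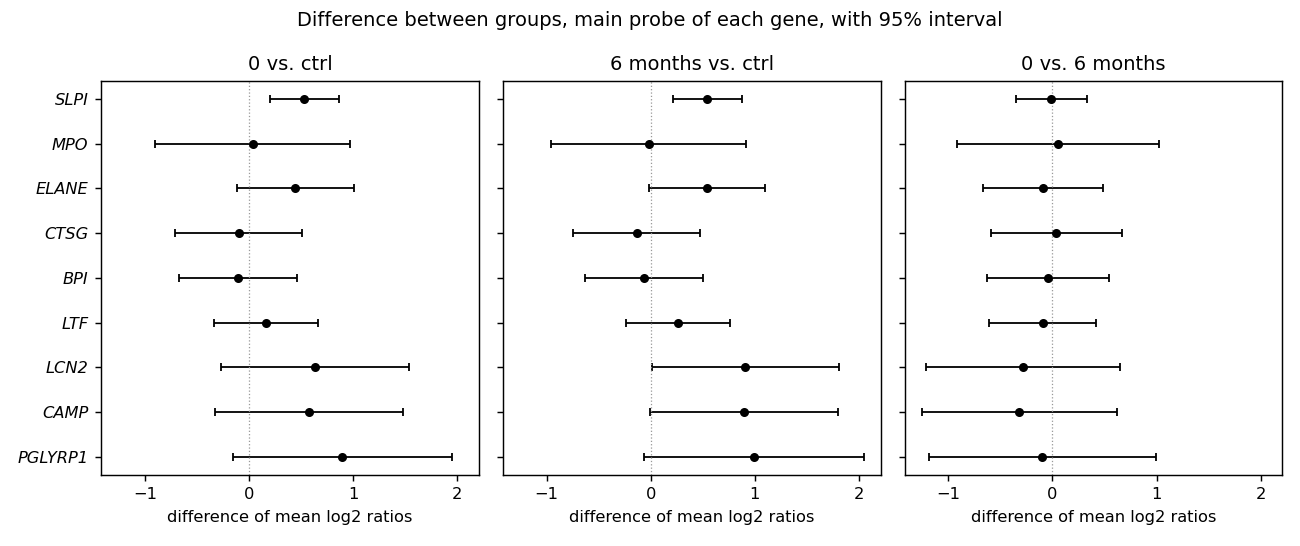
Difference of mean log2 ratios (first group minus second) for the main probe of SLPI and the granule genes in each comparison, with the 95% interval of the limma fit, which is not adjusted for the number of probes. In 0 vs. ctrl the interval of SLPI (0.20 to 0.86) lies above 0, and those of the 8 granule genes hold 0.

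Whether *SLPI* moved with the granule genes was asked within groups, so that differences between groups could not make the relation. In a limma fit of all probes with the 3 group means and *SLPI* probe 1 as a covariate, 0 of 12 granule probes were called at an adjusted p of 0.05, as were 0% of all 38285 probes. At an unadjusted p under 0.05, 3 of 12 granule probes had a slope on *SLPI*, against 12.8% of all probes (5.62% with a slope above 0). These were *CAMP* (slope 1.72 ± 0.60, SE, adjusted p = 0.283), *MPO* (1.64 ± 0.64, adjusted p = 0.316) and *BPI* probe 3 (1.76 ± 0.75, adjusted p = 0.346). The slope of *MPO*, whose signal was mostly not well above background, was 0.19 with normexp (adjusted p = 0.419) and turned to -1.22 in Cy5 alone (adjusted p = 0.0521). The *CD177* locus had a slope of 1.29 ± 0.54 (adjusted p = 0.34), and it was called with normexp at an offset of 1 (slope 1.35, adjusted p = 0.0294), where 3.81% of all probes were. *ELANE* had a slope of 0.30 ± 0.43 (adjusted p = 0.793) and *CTSG* of 0.53 ± 0.46 (adjusted p = 0.623). All 12 slopes, of probes for 8 genes, were above 0 on the ratios. The share of all probes with a slope above 0 was not counted, but their median r with *SLPI* after group means were taken out was 0.00. The count was 11 of 12 with slide as a random block or with array quality as a covariate. It was 7 of 12 in the Cy5 channel alone, and 10 of 12 with *SLPI* probe 2 as the covariate. With probe 2, 1 of 12 had an unadjusted p under 0.05 in limma (*MPO*, slope 1.11, adjusted p = 0.759), the slope of *CAMP* was 0.61 (adjusted p = 0.988), and those of *ELANE* and *BPI* probe 3 turned to -0.20 and -0.11.

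The relation differed in strength from group to group, though this difference was not tested. Before ASIT, all 8 granule genes had a Pearson r with *SLPI* above 0, with a median of 0.69, where 49.7% of all probes did and the median over all probes was 0.00. *LCN2* had an r of 0.78 (exact permutation p = 0.0474, Spearman rho = 0.68, exact p = 0.11) and *CTSG* of 0.75 (exact permutation p = 0.0496, rho = 0.68, exact p = 0.11). Without the 2 arrays farthest from the median of *SLPI* (dogs 1 and 3), r was 0.59 and 0.33 for these genes. In Cy5 alone the slope of *LCN2* on *SLPI* over the 3 groups was -1.61 (adjusted p = 0.0119 in limma), where 45.8% of all probes were called. *MPO* had an r of 0.83 (exact permutation p = 0.027, rho = 0.54, exact p = 0.236), but with Cy5 well above background on 3 of these 7 arrays and Cy3 on 0, so that its ratios give no firm relation. In ctrl, 6 of 8 genes were above 0 with a median r of 0.27, against 53.1% of all probes and a median of 0.07. *LCN2* was the highest there (r = 0.64, exact permutation p = 0.0964, rho = 0.62, exact p = 0.115, and r = 0.79 without the 2 arrays). After ASIT, 5 of 8 genes were above 0 with a median r of 0.14, against 50.1% of all probes.

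After ASIT the relation changed from gene to gene when dogs 1 and 5, the farthest from the median of *SLPI*, were left out. *CAMP* had an r of 0.64 (exact permutation p = 0.129, rho = 0.82, exact p = 0.0341) and 0.36 without these dogs. *ELANE* was the only one of the 8 genes to rise, from 0.11 to 0.77. Among the others, *BPI* probe 1 fell from -0.29 to -0.78, *LTF* probe 1 from -0.00 to -0.73 and *MPO* from 0.73 to 0.18. *LCN2* had an r of -0.21 after ASIT (exact permutation p = 0.692). Only *ELANE*, *CAMP* and *PGLYRP1* had an r above 0 in all 3 groups, 3 of 8 genes against 20.3% of all probes, and the count was 5 with normexp or the series matrix. *LTF* probe 1 was left out of it by an r of -0.00 after ASIT (exact permutation p = 0.999). For *ELANE*, r was 0.24, 0.25 and 0.11 (exact permutation p = 0.567, 0.579 and 0.78). Of 39 relations of *SLPI* probe 1 with the other 13 member probes within groups, 4 had an exact permutation p of r under 0.05, where 10.9% of the relations of all probes did. These were *LCN2*, *CTSG* and the dim *MPO* before ASIT, where 2.9% of all probes reached that level, and *SLPI* probe 2 after ASIT.

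**Figure D5:**
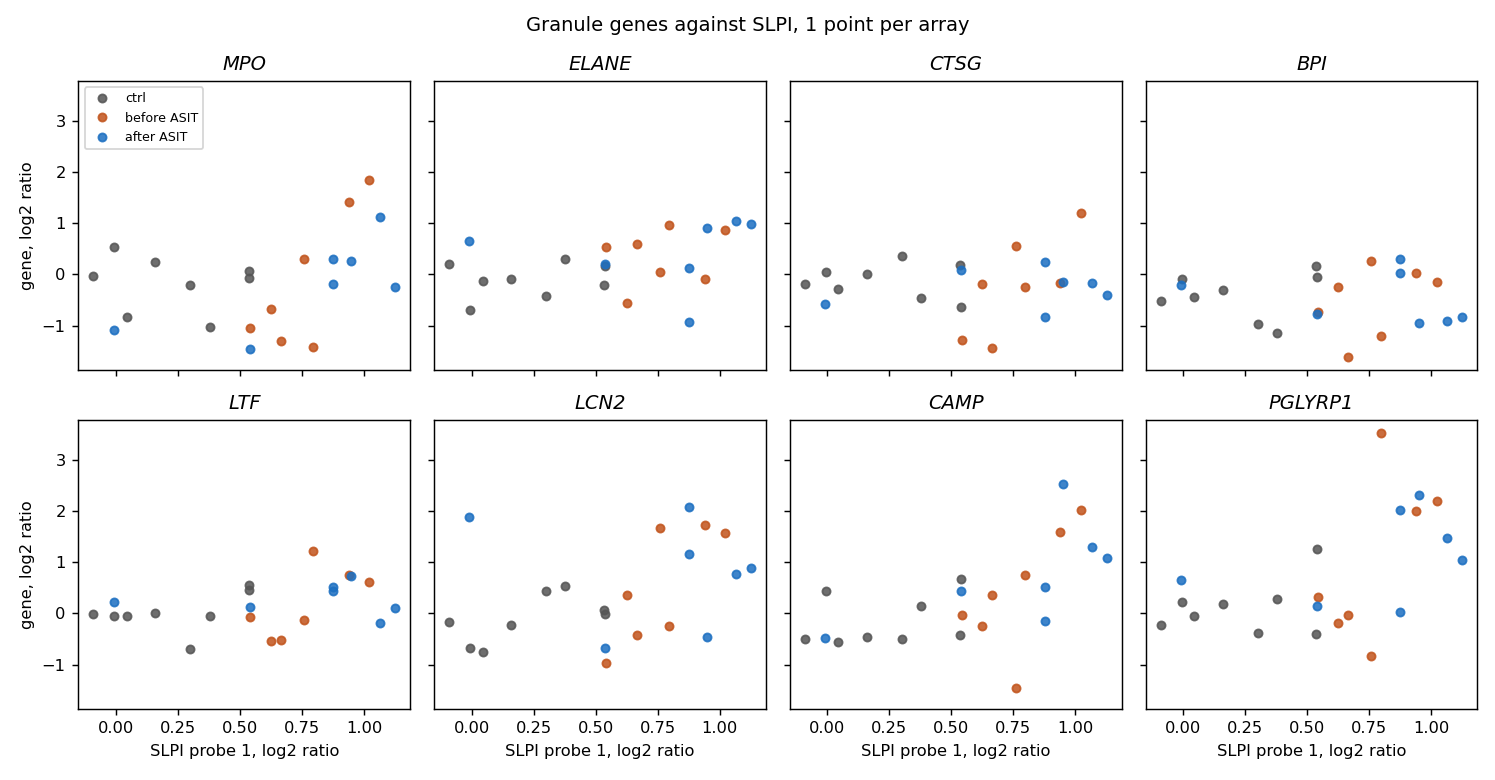
Log2 ratio of the main probe of each granule gene against SLPI probe 1, 1 point per array, coloured by group. Before ASIT, where SLPI spans 0.54 to 1.02, all 8 genes have an r above 0, and after ASIT dog 5 stands alone at the left with SLPI at -0.01.

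The *SLPI* probes themselves did not always move together. Within groups, probe 1 and probe 2 had an r of -0.45 in ctrl (exact permutation p = 0.271), 0.70 before ASIT (exact permutation p = 0.0782) and 0.88 after ASIT (exact permutation p = 0.0161), the last falling to -0.06 without dogs 1 and 5. The granule genes had a median r among themselves of 0.10 in ctrl, 0.36 before ASIT and -0.04 after ASIT, over 28 pairs. Over the 22 arrays with group means taken out, given as a description since 14 arrays come from 7 dogs, *LTF* with *PGLYRP1* (r = 0.74) and *CAMP* with *PGLYRP1* (r = 0.68) were the highest pairs of granule genes found by name, and *BPI* with *ELANE* the lowest (r = -0.58). *CAMP* with the *CD177* locus had an r of 0.71. On the same scale, the r of *SLPI* was highest with *CAMP* (0.53, above that of 97.4% of all probes) and the dim *MPO* (0.49), and lowest with *BPI* probe 1 (0.01).

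The genes outside the members whose pattern was most like *SLPI* probe 1, among 11995 named probes well above background on all arrays, were *NDUFS7*, a subunit of respiratory complex I (r = 0.82), *MRPS25*, of the mitochondrial ribosome (r = 0.81), *TMEM203* (r = 0.79), *TNNI3*, cardiac troponin I (r = 0.78), and *STK25*, a protein kinase (r = 0.77). Their differences in 0 vs. ctrl lay between -0.15 and 0.07, apart from the 0.53 of *SLPI*.

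Other genes of the pathway gave no call in limma. Of other azurophil genes, 4 of 6 were tested, with 2 higher and 2 lower in 0 vs. ctrl (median -0.01). Of other specific and gelatinase granule genes, 8 of 13 were tested, with 4 higher and 4 lower in 0 vs. ctrl (median 0.07) and 5 higher in 6 months vs. ctrl (median 0.17). *CYBB*, the catalytic subunit of the phagocyte oxidase, was the only member of these lists at an unadjusted limma p under 0.05, with a difference of -0.46 in 6 months vs. ctrl (adjusted p = 0.681). On *SLPI* probe 1, a slope at an unadjusted limma p under 0.05 was found for 2 of the 4 other azurophil genes, *PRSS57* (r = 0.57 over the 22 arrays with group means taken out) and *LYZ* (r = -0.44). Of the 8 specific and gelatinase granule genes, 3 had one, namely *CYBA* (r = 0.74), *MMP9* (r = 0.48) and *TCN1* (r = 0.42). None was called, the lowest adjusted p in limma being 0.22 (*CYBA*). The S100 genes of the neutrophil cytosol, *S100A8*, *S100A9* and *S100A12*, differed by at most 0.16 in size in 0 vs. ctrl. Of other protease inhibitors and binding partners of SLPI, 7 of 10 were tested, with 1 higher and 6 lower in 0 vs. ctrl (median -0.19). *PLSCR4*, a phospholipid scramblase that binds SLPI, had a difference of 1.23 in 0 vs. ctrl (limma, unadjusted p = 0.00264 and adjusted p = 0.176) and 1.19 in 0 vs. 6 months (adjusted p = 0.452). It was dim, with Cy5 well above background on 15 of 22 arrays. *A2M*, alpha-2-macroglobulin, had a difference of -0.90 in 0 vs. ctrl (limma, unadjusted p = 0.0416 and adjusted p = 0.396). Both *WFDC2*, another protein of the WAP domain family (r = 0.49 with *SLPI*), and *A2M* (r = -0.50) had a slope on *SLPI* at an unadjusted p under 0.05, with no call in limma. Of 4 tested regulators of granulocyte precursors, 2 were higher and 2 lower in 0 vs. ctrl.

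Markers of other cells were read beside these genes, and their part was not tested. The 4 mature neutrophil markers reported had a median difference of 0.10 in 0 vs. ctrl and 0.06 in 6 months vs. ctrl, with no call, and their mean ratio ranged over the arrays from -0.30 to 0.60 in ctrl, -0.72 to 1.11 before and -0.13 to 0.72 after ASIT. The 4 erythroid markers reported (*ALAS2*, *EPB42*, *SLC4A1* and *AHSP*) had higher means in patients, by a median of 0.38 in 0 vs. ctrl and 0.74 in 6 months vs. ctrl, with no call. Their mean ranged from -1.62 to 1.16 in ctrl, -1.56 to 1.12 before and -0.82 to 1.36 after ASIT, and no probe carried the globin names *HBB*, *HBA*, *HBA1* or *HBA2*. Of 6 epithelial markers, 2 were higher in 0 vs. ctrl (median -0.13) and 1 in 6 months vs. ctrl (median -0.20), and *KRT5*, *KRT14*, *KRT10* and *CDH1* were well above background on all 22 arrays. Of the other blood cells, monocyte, T cell and B cell markers (6 tested each), eosinophil (2) and platelet markers (3) were read. The 2 eosinophil markers went opposite ways in 0 vs. ctrl (*CCR3* -0.04 and *IL5RA* 0.49). In the order named, the median differences in 0 vs. ctrl were -0.15, 0.16, 0.06, 0.23 and -0.40. In 6 months vs. ctrl these were 0.08, -0.25, -0.34, 0.04 and -0.12. At an unadjusted limma p under 0.05 and with no call, *CDH1* (-0.49), *CD68* (0.78) and *IL5RA* (0.52) differed in 6 months vs. ctrl. At that level *PPBP* differed in 0 vs. ctrl (-0.65) and *CD2* in 0 vs. 6 months (0.48). A slope on *SLPI* at an unadjusted limma p under 0.05 was also found among these markers, with no call, for *PPBP* of platelets (r = -0.62), *SLC4A1* and *AHSP* of erythroid cells (r = 0.42 and 0.41) and *KRT14* of epithelium (r = 0.56).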

How the data were processed

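RNA of 22 blood samples was hybridized to Agilent canine arrays with 2 dyes. The authors used Feature Extraction 10.7.3.1, per the labels, while the file headers name 10.10.1.1, to subtract the background and apply Lowess normalization. The authors deposited raw and processed intensities and the log10 ratio of Cy5 to Cy3 of each spot, and a series matrix of log10 ratios in which the 14 patient arrays equalled the scanner files and the 8 ctrl arrays had r of 0.711 to 0.844 with them. The deposited log10 ratios were converted to log2, 208 outlier spots were left out, and spots of a probe were averaged. Probes whose Cy5 signal stood well above background on 7 arrays or more (38287) were fitted with limma 3.58.1 (R 4.3.3), with Benjamini-Hochberg adjustment over all of them. Single probes were compared by 2-sided exact permutation tests in R, and correlations of members by exact permutation in Python 3.11.15. Against ctrl the tests measure the spread between dogs. In 0 vs. 6 months the exact permutation test took the arrays as unpaired, and the sign-flip test paired them by dog. The number of arrays limits the precision. On simulated data limma recovered 195 of 200 probes changed by 2 among 38215 in 0 vs. ctrl, with 5 false calls. A change of 2 is larger than the difference of any member probe, and recovery at the sizes seen was not simulated. The slope fit recovered 198 of 200 with 11 false calls for a slope of 1 on a covariate of SD 1, wider than the SD of *SLPI* within any group. The main probe of a gene was the one with Cy5 above background on most arrays, then the brightest. Genes most like *SLPI* were the 5 with the highest r, and of the pathway lists those at an unadjusted p under 0.05 were named. The members and all lists were chosen with earlier results of these data known. From the neutrophil and erythroid marker lists, 1 gene each is not reported here and enters none of the values given. Dogs were paired by the labels, and arrays of the same dog had r of -0.04 to 0.56 after group means were taken out. Alternatives were the series matrix, Cy5 alone, normexp (offset 50) with loess, the ratio of processed signals, no filter or a strict filter on dim probes (19992 probes), slide as a block, the methods' test, the dog as a block, the other *SLPI* probe, array quality as a covariate, and leaving out dogs 6 and 7 after ASIT. Chosen after seeing the data were scan day as a random block normexp with an offset of 1, and leaving out ctrl dog 5 for *BPI* probe 3.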

Additional observations from a re-analysis of the deposited data

Results flagged for a closer look

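The ratio of *PGLYRP1* in the ctrl dog 7 stood far from the other healthy dogs, at 1.26 against 0.27 in the next highest. The gap made up 0.595 of the range of the 8 ctrl arrays. It was the only such value among 30 sets of arrays examined (10 member probes, namely the main probe of 9 genes and *SLPI* probe 2, in 3 groups), where chance gives about 1 in 20. The same dog had the highest ctrl ratio of *CAMP* (0.67) and of *SLPI* probe 1 (0.54).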

How the results depend on the processing

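For *SLPI* probe 1, normexp with an offset of 50 gave 0.060 in 0 vs. ctrl (exact permutation p = 0.413) and 0.073 in 6 months vs. ctrl (p = 0.404 by the same exact test), and with an offset of 1, chosen after seeing the data, 0.22 (exact p = 0.132) and 0.16 (exact p = 0.311), and a reversed 0.062 in 0 vs. 6 months (exact p = 0.72). An offset of 50 shrinks ratios of dim spots by construction, but the shrinkage also differed between arrays. After ASIT, *SLPI* probe 1 went from 1.13 to 0.01 in dog 6 and from 1.06 to 0.03 in dog 7. The brighter *CAMP* went from 1.08 to 0.08 in dog 6, against 0.43 to 0.40 in dog 1. For *SLPI* probe 1, Cy5 alone gave -0.59, -0.11 and, in 0 vs. 6 months, -0.48 (exact permutation p = 0.049, not paired by dog). This Cy5 signal was higher after ASIT in every dog, and the Cy3 signal of the reference differed by -0.36 in 0 vs. 6 months. With Cy5 alone, 3 member probes were called in 0 vs. ctrl, where 21.1% of all probes were. These were *MPO* (1.37) and both *SLPI* probes, in opposite directions (-0.59 for probe 1 and 1.71 for probe 2). In 6 months vs. ctrl 4 were called (*MPO*, *SLPI* probe 2 at 1.90, *LTF* and *PGLYRP1*), where 15.5% of all probes were. In Cy5 alone 3 granule probes had a slope on *SLPI* (*LCN2* below 0, *CAMP* and *PGLYRP1* above 0), where 45.8% of all probes did. The granule genes with r above 0 in all 3 groups were 5 with normexp at both offsets and 5 with the series matrix. The cause of these changes was not tested. Without the array of dog 6 or dog 7 after ASIT, *SLPI* differed by 0.48 to 0.49 in 6 months vs. ctrl, with 0 member probes called and 3 genes with r above 0. With the dog as a replicate block, *SLPI* differed by -0.01 in 0 vs. 6 months (exact sign-flip p = 0.938), 0 member probes were called, 0 granule probes had a slope, and no call changed. Dogs 1 to 3, whose pairs share a slide, gave -0.00. For the *CD177* locus, normexp with an offset of 1 turned the slope on *SLPI* into a call (adjusted p = 0.0294). The other alternatives changed no call of a member. Of the 8 granule genes, in 0 vs. 6 months 4 turned direction with slide as a fixed block (*CTSG*, *ELANE*, *MPO* and *PGLYRP1*), 2 with slide as a random block, 4 with normexp and 3 in Cy5 alone. In each comparison with ctrl, at most 1 turned under any of the settings examined (*CTSG* or *MPO*). Signal over background limits *MPO* most.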
